A study of Homo sapiens with 6 samples.

Results

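The 10 genes described here belong to the integrated stress response led by the transcription factor ATF4. They are ATF4, ATF5, DDIT3, CEBPB, TRIB3, PPP1R15A, ASNS, SLC7A11, CHAC1 and VLDLR, taken by name from a table of 56303 gene entries, and all 10 were found. RNA was sequenced from AGS, an established line from a human gastric cancer. One group (siSRSF2, 3 libraries) had been transfected with a small interfering RNA directed at SRSF2, a splicing factor rich in serine and arginine. The other group carries the label wild-type (WT, 3 libraries). Both groups are the same line grown in the same serum-supplemented medium. The labels do not state whether WT cells received a control siRNA or a transfection, how long the silencing lasted, or whether replicates were separate cultures. The p-values therefore measure the spread between these libraries, which may be technical.

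The integrated stress response begins with kinases that phosphorylate the translation initiation factor eIF2alpha when amino acids run short, unfolded proteins build up in the endoplasmic reticulum, double-stranded RNA appears or heme is lacking. Initiation then slows on most mRNAs, while mRNAs with upstream open reading frames, among them those of ATF4, ATF5, DDIT3 and PPP1R15A, are translated relatively better. ATF4 protein pairs with C/EBP proteins on composite elements and switches on genes for amino acid supply, feedback and, in prolonged stress, cell death. RNA levels do not report this translational step, and neither eIF2alpha phosphorylation nor ATF4 protein was measured here.

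Promoter stretches of 3 genes are shown because they hold the elements through which this response is known to act on genes of the set. RefSeq promoter windows (GRCh38.p14), from 250 bases before to 50 after a transcription start, were matched for 9 of the 10 genes, in 17 windows. SLC7A11 had no entry. The windows were searched on both strands for the core of the C/EBP-ATF composite element (TGATGNAA) and for the cyclic AMP response element (CRE, TGACGTCA). Capitals mark the match, and each stretch reads 5′ to 3′ on the strand of its gene.
ASNS, chr7:97872458-97872487, minus strand: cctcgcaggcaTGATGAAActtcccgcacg
CHAC1, chr15:40953251-40953280, plus strand: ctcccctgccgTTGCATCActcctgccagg
PPP1R15A, chr19:48872171-48872391, plus strand: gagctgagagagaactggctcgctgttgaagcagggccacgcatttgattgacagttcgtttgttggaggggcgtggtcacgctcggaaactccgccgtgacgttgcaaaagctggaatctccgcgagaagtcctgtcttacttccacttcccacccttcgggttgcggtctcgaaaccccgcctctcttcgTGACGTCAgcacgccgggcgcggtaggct

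The match in ASNS begins 68 bases before a RefSeq start, and that in CHAC1, on the opposite strand to the gene, 209 bases before. Both lie within an exon of the same gene in the deposited table, which includes longer transcripts. The match in PPP1R15A begins 58 bases before its start and lies outside the exons of the table. Of all 35116 windows, 3.62% hold the composite core and 1.85% the CRE. No window of the other members held these letters. Sequence beyond the windows, variants of these letters and any part of SLC7A11 were not searched, so an element there would be missed. A match is a description of sequence and not a measured binding site, and the genes that carry one did not move one way: ASNS was lower, PPP1R15A higher and CHAC1 too weakly covered to test.

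Total counts were 47518943 to 50021152 in WT and 26610937 to 36651623 in siSRSF2 libraries. SRSF2 itself was lower, at 21.5, 21.8 and 24.8 CPM (read count scaled to a library of 1000000 reads, with library sizes adjusted by the TMM method) in the siSRSF2 libraries against 44.5, 46.3 and 44.1 in WT (edgeR adjusted p = 4.39e-13, log2 fold change -0.98). It has 1106 exon bases (36.7% of its own) in common with MFSD11 on the opposite strand, which fell too (-0.41), and without a stated strand setting their shared reads cannot be separated. The keratin genes KRT8 and KRT18 of the epithelial marker list were abundant (3232 and 1098 CPM in WT), whereas EPCAM (5.00 CPM), KRT19 (3.21 CPM) and CDH1, the epithelial cadherin gene (0.219 CPM), were low. The 8 epithelial markers summed to 4128 to 4544 CPM in WT and 3691 to 3952 in siSRSF2 libraries. The 8 fibroblast and endothelial markers summed to 25.2 to 25.7 and 51.9 to 57.9 CPM, and the 6 leukocyte markers to 24.7 to 26.9 and 34.2 to 38.0 CPM. The fibroblast and endothelial sum held genes of both directions (mean CPM, WT to siSRSF2, edgeR adjusted p under 0.05). COL1A1 (16.0 to 35.5), DCN (1.01 to 5.07), COL3A1 (2.82 to 9.02) and PDGFRB (1.85 to 2.55) were higher. The endothelial genes CDH5 (2.22 to 0.954) and PECAM1 (0.830 to 0.206) were lower. CD3E was at 0 in the WT libraries, none of these lists held a gene at 0 in all 6 libraries, and their part in the results below was not tested.

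Of the 10 genes, 9 passed the filter on low counts and entered the edgeR quasi-likelihood test over 23689 genes. ATF5, ASNS, TRIB3, SLC7A11 and ATF4 were lower in siSRSF2 cells, and VLDLR, PPP1R15A and CEBPB were higher, at an adjusted p under 0.05. DDIT3 did not pass the test. In bulk RNA, fewer cells with a transcript and less of it per cell cannot be told apart. Among all tested genes 59.1% passed, 30.1% higher and 29.0% lower, so that the 3 higher genes (33.3% of 9) stand beside a similar background and the 5 lower genes (55.6%) beside a smaller one. The siSRSF2 libraries lay all below the WT libraries for the 5 lower genes and all above for the 3 higher genes, as they did for 31.2% and 32.5% of all tested genes. The median log2 fold change was -0.21 over the 9 genes and 0.02 over all tested genes. Scaling by library totals alone moved the median of all genes to 0.15, a shift that enters every fold change between the groups.

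**Figure D1:**
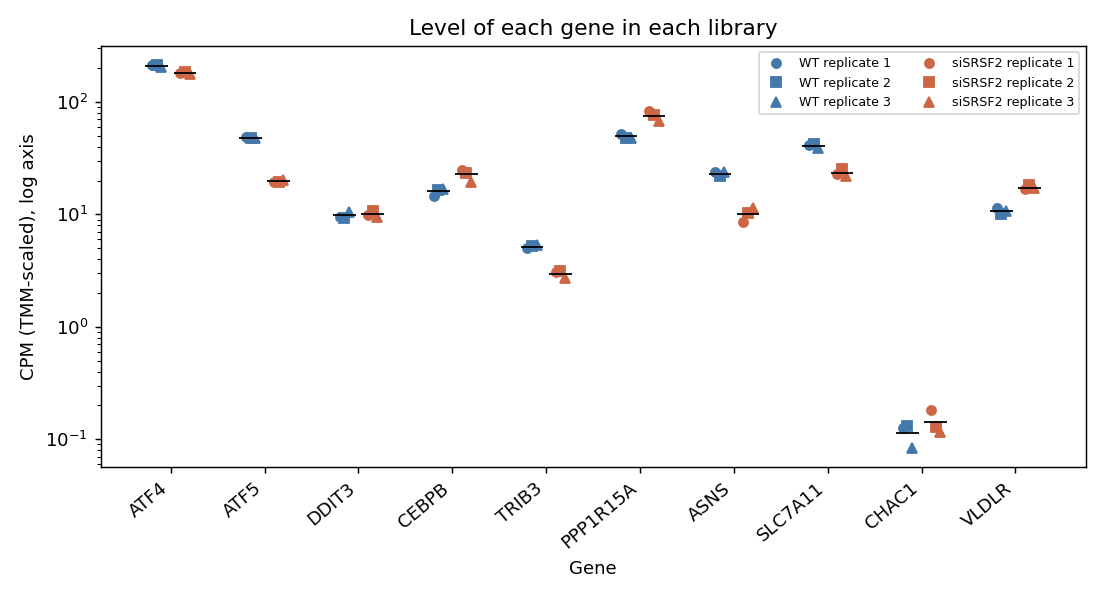
Level of each of the 10 genes in CPM (log axis) in the 3 WT libraries (blue) and the 3 siSRSF2 libraries (orange), with marker shapes for replicates and black lines for group means. The siSRSF2 points lie below WT for ATF4, ATF5, TRIB3, ASNS and SLC7A11, above WT for CEBPB, PPP1R15A and VLDLR, and overlap WT for DDIT3 and CHAC1.

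ATF4 was by far the most abundant of the set. Per length, it reached 83.4 ± 1.82 RPKM (CPM divided by the exon length in kilobases; SD, n = 3) in WT cells, and 2.53% of tested genes had a higher level. ATF5 (16.3 ± 0.165) and PPP1R15A (15.9 ± 0.654) followed without a difference beyond their spread. The pair CEBPB (8.18 ± 0.632) and DDIT3 (7.72 ± 0.516) also lay within each other's spread. ASNS (5.18 ± 0.263), SLC7A11 (4.22 ± 0.161), TRIB3 (1.51 ± 0.0503), VLDLR (1.15 ± 0.0653) and CHAC1 (0.0553 ± 0.0125) came next in that order. In siSRSF2 cells the order of levels changed below ATF4 (72.0 ± 1.999 RPKM). PPP1R15A (24.4 ± 2.39) and CEBPB (11.6 ± 1.42) came next, DDIT3 was at 7.95 ± 0.517, and ATF5 (6.67 ± 0.130) had moved below DDIT3. SLC7A11 (2.43 ± 0.199) and ASNS (2.26 ± 0.324) were then within their spread, VLDLR was at 1.85 ± 0.0770 and TRIB3 at 0.864 ± 0.0657.

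Among the transcription factors, ATF4 itself changed least of the genes that passed. The gene (ENSG00000128272.14) lies on the plus strand of chromosome 22 at 39519695 to 39522685 (GRCh38 positions, as for all genes below) with 3 merged exons. Its level was 212.6, 212.1 and 204.5 CPM in the WT libraries and 182, 185 and 176 CPM in the siSRSF2 libraries. Every siSRSF2 value was below every WT value, but the distance was small. The difference was -0.21 on the log2 scale (SE 0.044; adjusted p = 0.000156 by edgeR), which is 1.16-fold lower, and 36.3% of tested genes had a lower value. This call ended when totals alone scaled the libraries (-0.08 on the log2 scale, adjusted p = 0.101) and in a test against a change of 1.2-fold (adjusted p = 0.801). ATF4 has processed copies elsewhere in the genome, of which ATF4P4 drew 146 to 306 counts and ATF4P3 82 to 252 per library, beside 4958 to 10142 for ATF4, and how reads were divided between the copies is not stated.

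ATF5 is a close relative of ATF4 whose mRNA carries the same kind of upstream reading frames and whose protein is linked to the mitochondrial stress response. It showed the largest fall of the set. Levels were 48.7, 47.7 and 48.0 CPM in WT and 19.5, 19.5 and 20.2 CPM in siSRSF2 libraries. The groups were far apart, and replicates within each group varied by under 2% (coefficient of variation 1.01% in WT and 1.95% in siSRSF2). ATF5 was 2.44-fold lower (log2 scale -1.29, SE 0.059; adjusted p = 3.59e-16 by edgeR), and 2.71% of tested genes had a lower value. ATF5 (ENSG00000169136.10) lies on chromosome 19 at 49928702 to 49933935, plus strand, 6 merged exons. It shares 626 exon bases (21.2% of its own) with the nucleoporin gene NUP62 and 75 with IL4I1, both on the opposite strand. NUP62 (log2 fold change -0.79) and IL4I1 (-0.63) fell by less, and without a stated strand setting the reads of the shared parts cannot be told apart.

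DDIT3 encodes CHOP, the factor that ATF4 induces in prolonged stress and that promotes cell death. Its level was 9.50, 9.31 and 10.5 CPM in WT and 9.96, 10.8 and 9.46 CPM in siSRSF2 libraries. The groups overlapped. The difference was 0.04 on the log2 scale (SE 0.096; adjusted p = 0.732 by edgeR), and over the alternatives it ranged from -0.03 to 0.17 with no adjusted p below 0.131. DDIT3 (ENSG00000175197.12; chromosome 12, 57516588 to 57520517, minus strand, 2 merged exons) shares 355 exon bases, 28.0% of its own, with the methionyl-tRNA synthetase gene MARS on the opposite strand. MARS was far more abundant (106 ± 1.34 CPM in WT) and fell by 0.67 on the log2 scale. Without a stated strand setting the reads of the shared part cannot be told apart.

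CEBPB encodes C/EBPbeta, a partner of ATF4 on composite elements and also a factor of inflammatory and differentiation programmes. It rose from 14.6, 16.5 and 16.9 CPM in WT to 24.9, 23.4 and 19.5 CPM in siSRSF2 libraries. All siSRSF2 values were higher, with siSRSF2 replicate 3 closest to WT. The rise was 1.41-fold (log2 scale 0.50, SE 0.085; adjusted p = 1.86e-05 by edgeR). This single-exon gene (ENSG00000172216.5) lies on chromosome 20 at 50190734 to 50192689, plus strand. Of its exon bases, 231 are shared with CEBPB-AS1 on the opposite strand, which rose as well (0.48, from 2.55 to 3.60 CPM, edgeR adjusted p = 0.0182). As the strand setting is not stated, reads of the shared part cannot be told apart.

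The feedback regulators moved in opposite directions. TRIB3 encodes a pseudokinase that ATF4 and CHOP induce and that restrains both ATF4 and AKT. It was at 4.99, 5.22 and 5.33 CPM in WT and at 3.05, 3.14 and 2.71 CPM in siSRSF2 libraries, on counts of 238 to 253 and 83 to 121. The groups did not overlap, and TRIB3 was 1.75-fold lower (log2 scale -0.80, SE 0.14; adjusted p = 1.46e-05 by edgeR). TRIB3 (ENSG00000101255.10) lies on chromosome 20 at 362835 to 397559, plus strand, 9 merged exons, and shares no exon base with another entry. It had the widest SE of the tested members.

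PPP1R15A encodes GADD34, the inducible subunit that directs protein phosphatase 1 to eIF2alpha and so ends the response. It rose from 51.6, 48.2 and 48.1 CPM in WT to 82.6, 75.9 and 67.9 CPM in siSRSF2 libraries. Every siSRSF2 library lay above WT. The rise was 1.53-fold (log2 scale 0.61, SE 0.061; adjusted p = 3.60e-09 by edgeR). PPP1R15A (ENSG00000087074.7) lies on chromosome 19 at 48872392 to 48876057, plus strand, 2 merged exons, directly downstream of the promoter stretch printed above. Its constitutive counterpart PPP1R15B, named after its value was seen, went the other way, from 64.3 ± 0.523 to 50.8 ± 6.28 CPM (log2 scale -0.34, SE 0.065; adjusted p = 0.000123 by edgeR).

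**Figure D2:**
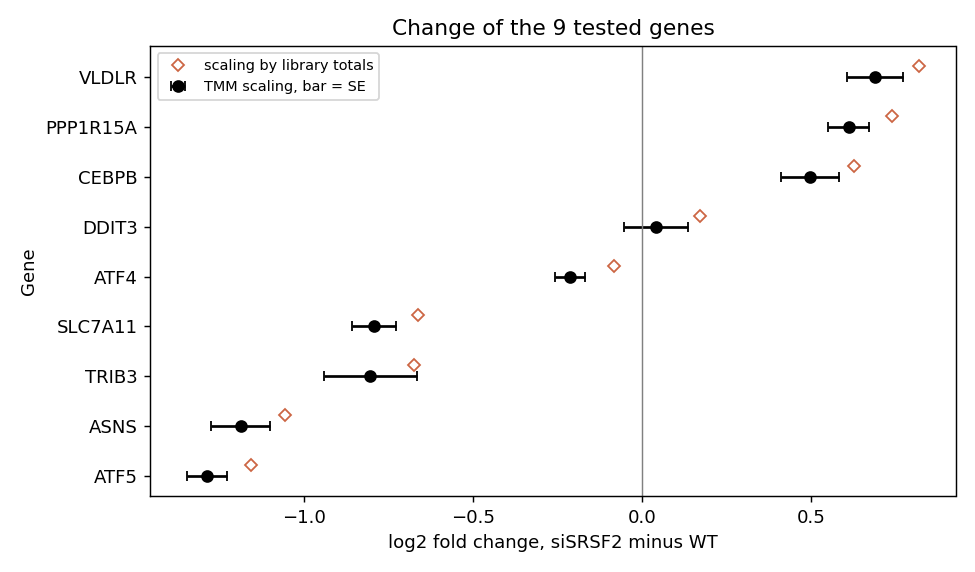
Log2 fold change (siSRSF2 minus WT) of the 9 tested genes, with TMM scaling (black points, bars are SE) and with scaling by library totals (open diamonds). ATF5 (-1.29) and ASNS (-1.19) lie lowest and VLDLR (0.69) highest, and only the value of ATF4 loses its call under the other scaling (-0.08).

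ASNS and SLC7A11, which act in amino acid supply, were both lower. ASNS encodes asparagine synthetase, the textbook ATF4 target of amino acid shortage. It was at 23.7, 21.7 and 23.8 CPM in WT and at 8.57, 10.2 and 11.4 CPM in siSRSF2 libraries. ASNS was 2.28-fold lower (log2 scale -1.19, SE 0.088; adjusted p = 7.06e-12 by edgeR), and 3.58% of tested genes had a lower value. Libraries of the siSRSF2 group varied more than WT here (coefficient of variation 14.3% against 5.08%), yet the highest siSRSF2 value was far below the lowest WT value. ASNS (ENSG00000070669.16; chromosome 7, 97852118 to 97872542, minus strand, 14 merged exons) has pseudogene entries with at most 18 counts in any library.

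SLC7A11 encodes xCT, the light chain of the cystine-glutamate antiporter that feeds glutathione synthesis. It was at 41.1, 42.0 and 39.0 CPM in WT and at 23.0, 25.6 and 21.8 CPM in siSRSF2 libraries. The groups did not overlap (1.73-fold lower, log2 scale -0.79, SE 0.065; adjusted p = 5.47e-11 by edgeR). SLC7A11 (ENSG00000151012.13) lies on chromosome 4 at 138164097 to 138242349, minus strand, 12 merged exons. It shares 865 bases with SLC7A11-AS1 on the opposite strand, whose shared reads cannot be told apart either. SLC7A11-AS1 was at 10.5 ± 0.447 CPM in WT and 10.2 ± 0.721 in siSRSF2 cells and did not pass (edgeR adjusted p = 0.723). The heavy chain gene SLC3A2, whose product pairs with xCT and with other light chains, fell from 216 ± 4.26 to 85.5 ± 0.901 CPM (2.52-fold lower, edgeR adjusted p = 8.12e-19).

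CHAC1 encodes a glutathione-degrading enzyme that is among the most inducible ATF4 and CHOP targets. Only 4 to 6 reads were counted in each of the 6 libraries, 0.0842 to 0.131 CPM in WT and 0.115 to 0.184 CPM in siSRSF2. A count of 3 corresponds to 0.0629 to 0.110 CPM, for counting error only, so CHAC1 lay close to the detection limit in both groups and the filter removed it. Without the filter, its log2 fold change was 0.23 with an edgeR adjusted p of 0.890, and a difference was not detectable at this depth. CHAC1 (ENSG00000128965.12) lies on chromosome 15 at 40952962 to 40956519, plus strand, 3 merged exons. Its paralogue CHAC2, which encodes a slower enzyme of the same reaction, was well covered and fell from 24.8 ± 0.288 to 8.90 ± 0.627 CPM (2.79-fold lower, edgeR adjusted p = 7.65e-15).

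VLDLR encodes the very low density lipoprotein receptor, whose gene is induced by the PERK and ATF4 branch in stressed liver cells. It showed the largest rise of the set, from 11.3, 10.1 and 10.8 CPM in WT to 16.7, 18.1 and 17.1 CPM in siSRSF2 libraries. The groups were clearly apart (1.61-fold, log2 scale 0.69, SE 0.082; adjusted p = 4.68e-08 by edgeR). VLDLR (ENSG00000147852.15; chromosome 9, 2621834 to 2660053, plus strand, 19 merged exons) shares 738 bases with VLDLR-AS1 on the opposite strand. VLDLR-AS1 rose too, from 2.29 ± 0.464 to 4.44 ± 0.408 CPM (0.96, edgeR adjusted p = 1.47e-05). Here too, reads of the shared part cannot be told apart, because the strand setting is not stated. Of 8 tested genes of the lipoprotein receptor family and its ligands and regulators, 4 were higher and 1 lower (50% and 12.5%, against 30.1% and 29.0% of all genes), with a median log2 fold change of 0.19. Under totals scaling 6 were higher and 1 lower (median 0.32). LRP1, a large scavenging receptor, rose 4.56-fold (46.8 ± 1.43 to 214 ± 19.0 CPM). LRP8, the closest relative of VLDLR as a reelin receptor, was the lower one (124 ± 3.39 to 58.2 ± 0.919 CPM, log2 fold change -1.09).

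Counts were also set against those of ATF4 within each library, a ratio that no scaling between libraries can move. Per 100 ATF4 reads, WT libraries held 22.9, 22.5 and 23.5 reads of ATF5, and siSRSF2 libraries held 10.7, 10.5 and 11.5. ASNS went from 11.01 ± 0.711 to 5.58 ± 0.913 reads per 100 ATF4 reads (SD, n = 3), SLC7A11 from 19.4 ± 0.375 to 12.95 ± 0.741, and TRIB3 from 2.47 ± 0.129 to 1.64 ± 0.0808. These 4 genes were thus below WT also relative to ATF4. PPP1R15A went from 23.5 ± 0.786 to 41.7 ± 3.39, CEBPB from 7.63 ± 0.716 to 12.5 ± 1.28 and VLDLR from 5.12 ± 0.306 to 9.56 ± 0.336, all above WT in every library. DDIT3, whose CPM overlapped, was at 4.47, 4.39 and 5.15 per 100 ATF4 reads in WT and at 5.47, 5.80 and 5.39 in siSRSF2 libraries, without overlap. ATF4 itself was 1.16-fold lower by CPM, so that a gene of unchanged CPM rises in this ratio. The mean DDIT3 ratio was 1.19-fold higher. How many of all tested genes lie without overlap on this ratio was not counted. With 3 libraries against 3, an exact two-sided permutation test of such a ratio cannot go below p = 0.1, and none was used.

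**Figure D3:**
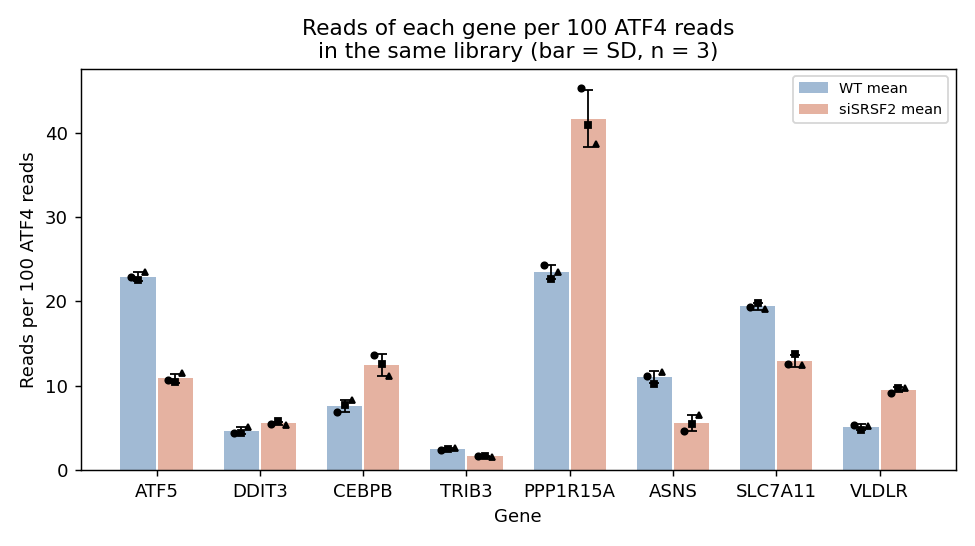
Reads of each gene per 100 ATF4 reads of the same library (bars are means with SD, n = 3 per group, points are libraries; CHAC1 is left out for its low counts). ATF5, TRIB3, ASNS and SLC7A11 are lower in siSRSF2 libraries, and DDIT3, CEBPB, PPP1R15A and VLDLR are higher. ATF4 was itself lower in siSRSF2 libraries by CPM, and DDIT3 did not pass the test by CPM.

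Upstream of ATF4, neither the kinase genes nor the genes of eIF2 and eIF2B all moved in the same direction. Of 19 tested genes for eIF2alpha kinases, their regulators, eIF2 subunits, its exchange factor eIF2B and its phosphatases, 3 were higher and 12 lower (median log2 fold change -0.22), beside 30.1% and 29.0% of all genes, and totals scaling gave 4 higher and 9 lower (median -0.09). EIF2S1, which encodes eIF2alpha itself, fell from 136 ± 4.12 to 65.4 ± 3.81 CPM (log2 fold change -1.06), EIF2S2 by 0.78 and EIF2B1 by 0.84 on the log2 scale. EIF2AK3, the gene of the endoplasmic reticulum kinase PERK, rose from 30.3 ± 1.11 to 49.2 ± 3.11 CPM (0.70, edgeR adjusted p = 9.69e-11). EIF2AK2, the gene of the double-stranded RNA kinase PKR, and EIF2S3 rose by less (0.15 and 0.12), and neither passed a test against 1.2-fold. The other kinase genes, given here after their values were seen, were EIF2AK4, which encodes GCN2, lower by little (-0.14, adjusted p = 0.00852), and EIF2AK1, which encodes the heme-regulated kinase, not past the test (0.09, adjusted p = 0.0725).

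Of 18 partners and relatives of ATF4, 6 were higher and 7 lower (33.3% and 38.9%), near the 30.1% and 29.0% of all genes, with a median log2 fold change of -0.07 that became 0.06, with 7 higher and 6 lower, when libraries were scaled by totals. FOS rose from 2.35 ± 0.679 to 9.65 ± 0.768 CPM, JUND by 0.55 on the log2 scale, and BTRC, which encodes a ubiquitin ligase subunit that recognises ATF4, by 0.40. BATF3 (-1.10), JUN (-0.84) and the co-activator gene EP300 (-0.41) fell. CEBPG, the ATF4 partner for amino acid genes (-0.71, adjusted p = 4.21e-08), and ATF3, a factor induced by ATF4 (-0.50, adjusted p = 4.18e-05), were also lower and were picked after their values were seen. The remaining called genes of the list were CEBPD (0.47), ATF2 (0.29) and NFE2L1 (0.21), which were higher, and RPS6KA3 (-0.39) and PHF8 (-0.14), which were lower.

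Amino acid transporters known as ATF4 targets numbered 10 tested genes, 6 of them lower and 2 higher (60% and 20%, against 29.0% and 30.1% of all genes). The median log2 fold change was -0.38, and totals scaling gave 5 lower and 3 higher. Besides SLC3A2, SLC7A5, which encodes its leucine-transporting partner LAT1, fell from 341 ± 16.8 to 142 ± 8.78 CPM and SLC7A1, a cationic amino acid carrier, from 43.9 ± 0.959 to 20.8 ± 1.63 CPM. SLC1A4, a neutral amino acid carrier, rose from 4.22 ± 0.117 to 7.39 ± 0.909 CPM, and SLC43A1 rose at the detection limit (0.0787 to 0.334 CPM). Aminoacyl-tRNA synthetase genes with XPOT, the tRNA exporter gene, numbered 14. Of these, 12 were lower and 1 higher (85.7% and 7.14%, against 29.0% and 30.1% of all genes). Their median was -0.68, and totals scaling gave 10 lower and 1 higher. TARS fell from 754 ± 13.4 to 350.4 ± 8.69 CPM, NARS from 306 ± 2.15 to 173 ± 9.45 CPM and XPOT from 251 ± 9.28 to 142 ± 0.986 CPM. The single rise, of CARS (0.12), no longer passed in several of the alternatives.

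Of 13 enzyme genes of amino acid synthesis, 4 were higher and 7 lower (30.8% and 53.8%). The higher share was near the 30.1% of all genes, and the lower share was above the 29.0%. The median log2 fold change was -0.18, and scaling by totals gave 5 higher and 4 lower. Within the serine pathway, PSAT1 fell from 54.9 ± 1.18 to 17.7 ± 0.872 CPM (-1.63), whereas the first enzyme gene PHGDH (0.36) and the mitochondrial SHMT2 (0.57) and ALDH1L2 (0.63) rose. PSPH, the last enzyme gene of serine synthesis (-0.32), and the mitochondrial MTHFD2 (-0.33) also fell, and both were picked after their values were seen. GOT1 (-0.68) and ALDH18A1 (-0.45), of aspartate and proline synthesis, fell. The remaining called genes of the list were PCK2 (0.53), which was higher, and PYCR1 (-0.26) and GPT2 (-0.18), which were lower.

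Genes around glutathione and cystine use, including suppressors of lipid peroxidation, numbered 11 beside SLC7A11 and CHAC1. Of these, 5 were lower and 2 higher (45.5% and 18.2%, against 29.0% and 30.1% of all genes), with a median of -0.28 on the log2 scale. Under totals scaling 5 were lower and 4 higher (median -0.16). CHAC2 fell most, and AIFM2, a suppressor of lipid peroxidation (-0.86), and GCLM, a subunit of the rate-limiting enzyme of glutathione synthesis (-0.75), fell as well. GPX4, the lipid peroxide reductase gene, rose by 0.28, but did not pass against a change of 1.2-fold, and OPLAH rose from 0.934 to 1.73 CPM.

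Of 24 targets tied to stress, growth and death, 13 were higher and 5 lower (54.2% and 20.8%, against 30.1% and 29.0% of all genes). The median log2 fold change was 0.37, and 15 were higher and 1 lower when libraries were scaled by totals. KLHL24 rose 15.1-fold (2.40 ± 0.348 to 36.1 ± 0.404 CPM), TXNIP 10.9-fold (10.3 ± 0.710 to 112.5 ± 13.1 CPM) and DDIT4 2.98-fold (223 ± 12.8 to 665 ± 28.0 CPM). KLHL24, TXNIP and DDIT4 also answer to other regulators, such as FOXO factors, glucose-sensing factors or hypoxia. Whether ATF4 or any of these acted on them here was not tested. EIF4EBP1, which encodes a translation repressor, fell (-0.64), and SQSTM1 (-0.17) and ATG5 (-0.20) were lower by amounts that did not pass against 1.2-fold or with scaling by totals. In the ATF6 and XBP1 arms of the unfolded protein response, 11 of 20 genes were lower (55%, against 29.0% of all genes). None was higher, against 30.1% of all genes. The median was -0.20, but with scaling by totals 6 were lower and 5 higher. HSPA5, the chaperone BiP (721 ± 12.8 to 273 ± 12.4 CPM), DNAJB11 (-1.04) and MANF (-0.87) fell.

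**Figure D4:**
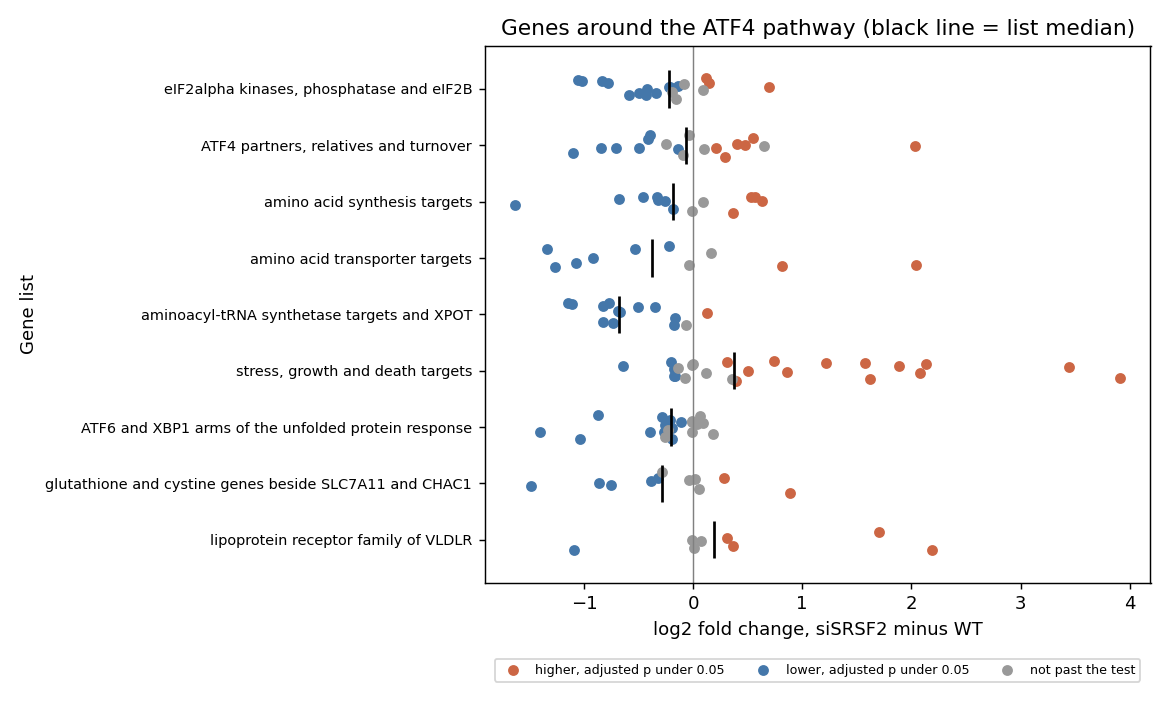
Log2 fold change (siSRSF2 minus WT) of each tested gene in 9 lists around the ATF4 pathway, coloured by call at an edgeR adjusted p of 0.05, with the list median as a black line (vertical scatter only separates points). The aminoacyl-tRNA synthetase list has the lowest median (-0.68) and the list of stress, growth and death targets the highest (0.37).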

How the data were processed

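The deposited table holds whole-number read counts by gene, not normalized, beside exon positions and exon length. The submitters' processing notes name HISAT2 (2.0.5), featureCounts (1.5.0-p3) and, as build, the mouse mm10, but the table holds human names. Of 35957 gene names found once in GENCODE 29 (GRCh38), 93.4% had the same start and end. Neither the strand setting nor the treatment of multi-mapping reads is stated there. Groups and replicate numbers came from sample titles.

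The fit used edgeR 4.0.16 under R 4.3.3, with filterByExpr (minimum count 10, 99.9% of counts kept), TMM scaling, robust quasi-likelihood F test of siSRSF2 against WT, Benjamini-Hochberg adjustment over 23689 genes at 0.05. CPM is scaled to 1000000 reads with TMM-scaled library sizes, RPKM divides it by exon length, and SE is the log2 fold change over the root of F. The common biological coefficient of variation was 6.27%. Replicates differed by more than sampling noise (chi-square 3.83 to 8.75 per gene), so none was merged. The pipeline was tested on simulated counts.

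The members and lists were chosen with earlier results of these data known. Of 162 list entries all were found, 2 by another symbol. Named genes were SRSF2, the 10 members, up to 3 called genes per list and direction with the smallest p, genes sharing exon positions with a member, and the 3 genes most correlated with ATF4. A few genes that this rule takes are not reported here. List counts carry no test of the list. Alternatives were DESeq2 1.42.0, RLE factors, library totals, no filter, mean CPM of at least 1, a non-robust fit, a test against 1.2-fold, a replicate block and each library left out.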

Additional observations from a re-analysis of the deposited data

How the results depend on the processing

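In each of the 14 alternatives, 3 of the 10 genes were called higher, and 5 were called lower in 12 of them. The count of lower calls was 4 with library totals and with the test against 1.2-fold, where ATF4 lost its call (values in the report). ATF5 ranged from -1.36 to -1.16 on the log2 scale, ASNS from -1.29 to -1.06, TRIB3 from -0.88 to -0.67, SLC7A11 from -0.87 to -0.66, CEBPB from 0.42 to 0.63, PPP1R15A from 0.54 to 0.74 and VLDLR from 0.62 to 0.82, and none of these 7 lost its call. Over all genes, calls were 7129 higher and 6863 lower, and 8557 and 5495 with library totals. Deviations from the group means correlated over 0.1 in only 1 of the 3 same-numbered pairs (r of 0.15, -0.10 and -0.07 for replicates 1, 2 and 3 over 9153 genes), and replicates 2 and 3 of each group correlated better with the other number (0.14 and 0.16), so the numbers were not taken as pairs. With the replicate block, 6927 genes were called higher and 6770 lower, and 3 and 5 of the members. Among other named genes, CARS, EIF2S3, EIF2AK2, ATG5, SQSTM1 and GPX4 lost their calls in at least 1 alternative. Counts of 4 to 6 reads in both groups limit CHAC1.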

Other observations

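The letters of the composite core were also looked for in the promoter windows of the genes in the pathway lists. They were found in 11 tested genes, of which 8 were lower in siSRSF2 cells, 1 was higher and 2 did not pass. The lower ones were SLC3A2 (log2 fold change -1.33), SLC7A1 (-1.07), SLC1A5 (-0.92), CEBPG (-0.71), GOT1 (-0.68), SLC38A1 (-0.54), ATF3 (-0.50) and PPP1R15B (-0.34), the higher one was SLC1A4 (0.81), and HERPUD1 (-0.14) and JDP2 (-0.10) did not pass. Over all 339 tested genes with these letters in a window, 32.7% were lower and 33.3% higher, beside 37.7% and 33.2% of the 11346 tested genes that have a window. In the lists that hold the 11 genes, 20.8% to 63.2% of tested genes were lower, with or without these letters. The share among list genes without the letters was not counted. The CRE was found in 2 tested genes of the lists, JUND (higher, 0.55) and PHF8 (lower, -0.14), and over all 405 tested genes with a CRE 46.4% were lower and 27.7% higher (median -0.14, against -0.02 over the 11346). The lists were chosen around the ATF4 pathway, some of them for known ATF4 targets, and with earlier results known, so the counts are a description.

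Of 9152 other genes with a mean of at least 10 CPM, SLC37A3, FLJ22447 and TMCO1 followed ATF4 most closely over the 6 libraries (Pearson r of 0.999, 0.999 and 0.998 on log2 CPM), and 3378 genes had an r above 0.9. The libraries form 2 groups that differ widely, so such values mostly repeat the group difference. Within the set, SLC7A11 was closest to ATF4 (0.99), and VLDLR ran most against it (-0.94).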
